A study of Mus musculus with 6 samples.

Results

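The genes described here are 10 imprinted genes of the mouse: Meg3, Rian, Mirg, Begain and Dlk1 of the domain on chromosome 12 that also holds Mir1247, and Nnat, Peg3, Ndn, Magel2 and Plagl1 of other domains. They were chosen by name, with earlier results of these data known. Of the 10, 8 have an entry among the 10361 gene names of the expression table. Dlk1 and Magel2 have none, so their expression was not analysed here, and they appear below only in the sequence searches. All 8 passed the filter on low values, which kept genes averaging 1 FPKM or more. FPKM is a level scaled to transcript length and to the mapped reads of a library, so levels of different genes can be compared per length.

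The study sequenced poly-A RNA of retinal ganglion cells (RGCs), which send the output of the eye to the brain, in 3 groups of 2 libraries. All groups are wild-type mice of the strain labelled C57/6NCrl. Adult control RGCs were transduced with an AAV2 vector for a scramble shRNA mimic, with mCherry as the marker for sorting. Adult miR-1247 RGCs were transduced with AAV2 for a miR-1247-5p mimic. Untreated RGCs of embryonic day 18 (E18) were the third group. The adult cells, about 5000 per condition from 10 retinas, were immunopanned on Thy1 and sorted for mCherry, whereas about 50000 E18 cells were immunopanned only. Age, vector, sorting and cell number cannot be told apart between E18 and adult libraries. Separate animals for the paired libraries of a group are not stated in the labels, so p-values measure the spread between libraries, which may be technical. Mir1247 has no entry, so these values give no check of the mimic.

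An imprinted gene is expressed mainly from the copy inherited from 1 parent, through DNA methylation laid down in the germ line. Many imprinted genes act in growth and in the developing brain, and many are turned down after birth. In the Dlk1-Dio3 domain the maternal copy gives the noncoding RNAs Meg3, Rian and Mirg, which carry many small RNAs, and the paternal copy gives the coding genes Dlk1, Rtl1 and Dio3. Mir1247 lies at the Dio3 end of this domain.

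The mature sequences show what the vector was built to supply and which microRNAs the host transcripts of the same domain carry. They are RefSeq sequences (table of build GRCm38.p6), read from the 5′ end, with the seed (bases 2 to 8, which pair with targets) in capitals.

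miR-1247-5p: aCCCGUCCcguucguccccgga

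miR-770-5p, within Meg3: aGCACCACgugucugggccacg

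miR-370-3p, within Rian: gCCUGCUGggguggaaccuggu

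miR-410-3p, within Mirg: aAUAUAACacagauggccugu

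miR-453, within Mirg: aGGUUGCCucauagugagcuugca

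miR-496a-5p, within Mirg: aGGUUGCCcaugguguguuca

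In the GENCODE annotation of GRCm39 (the mm39 build of the table), 2 microRNA genes lie within Meg3, 4 within Rian and 14 within Mirg on the same strand, and 13 small nucleolar RNA genes lie within Rian. Of these 20 microRNA genes 19 matched the RefSeq table, with 35 mature sequences and 34 distinct seeds. The seed that miR-453 and miR-496a-5p share is the only one that occurred more than once among them. None of the 35 has the seed of miR-1247-5p, and no other sequence among the 1679 mature mouse microRNAs of the table has it. Poly-A libraries do not measure these small RNAs, so the values below are those of the host transcripts.

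Mir1247 itself (chromosome 12, 110244482 to 110244563, minus strand) lies 939 bases before Dio3 and within the span of the noncoding gene Dio3os. From it, Mirg is 528.6 kb away, Rian 616.3 kb, Meg3 706.3 kb and Begain 1210.2 kb. The complement of the seed is GGACGGG. In 1 annotated transcript per gene it occurred in 14.0% of 10030 gene names and in the 3′ UTR of 3.25% of 9853 coding genes. These are the names, each searched on its own, behind the 9987 tested units that have an annotated transcript, since a unit can hold several names. No member holds it in the 3′ UTR. Begain and Dlk1 hold it once each, in the coding sequence, and the noncoding transcripts of Meg3, Rian and Mirg do not hold it. Both sites are given with the match in capitals.

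Begain: ggccatgtGGACGGGtggccggc

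Dlk1: gatggctgGGACGGGaaattctg

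Each result below is a difference of mean log2(FPKM + 1) with its standard error, and understates changes of low genes. The test is limma with Benjamini-Hochberg adjustment over 9987 tested genes, called at an adjusted p of 0.05. Group levels are given as mean FPKM ± SD (n = 2 for each). In bulk samples a lower level can mean fewer cells that express a gene or less RNA per cell, which cannot be told apart.

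The table lists all 14 RGC markers. Their summed level was 3588 to 3660 FPKM in adult control, 2175 to 2197 FPKM in adult miR-1247 and 5509 to 5523 FPKM in E18 libraries. Against adult control 10 of them were called higher and 4 lower in E18, and all 14 were called lower in the miR-1247 libraries. For Müller glia and astrocytes 4 of 8 markers have an entry, with sums of 533 to 898 FPKM, 1177 to 1317 FPKM and 158 FPKM in the same order of groups. Of these 4, 1 was called higher and 3 lower in E18 against adult control. The defining markers Rlbp1, Slc1a3, Aqp4 and Gfap have no entry. For amacrine cells 3 of 7 have an entry, with sums of 130.3 to 151.6 FPKM, 173 to 205 FPKM and 1.13 to 3.41 FPKM. Rod (2 of 7), bipolar (1 of 5) and oligodendrocyte (1 of 3) markers each summed to at most 41.5 FPKM in any library. Cone, microglial, endothelial, fibroblast and progenitor markers have no entry. The part of these shifts in the results below was not tested.

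In E18 against adult control, 3 members rose (Nnat, Meg3 and Begain), 2 fell (Peg3 and Ndn) and 3 were not called (Rian, Mirg and Plagl1). Among all tested genes 40.2% were called higher, 29.8% lower and 70.1% in either direction, so 5 of 8 is near the background. By size, Nnat ranked 6 from the top of 9987 log2 fold changes and Meg3 110, while Peg3 ranked 625 from the bottom. Since the members were chosen with earlier results of these data known, these ranks do not show that the set stands apart. The members' median was 0.29, beside 0.16 over all tested genes.

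**Figure D1:**
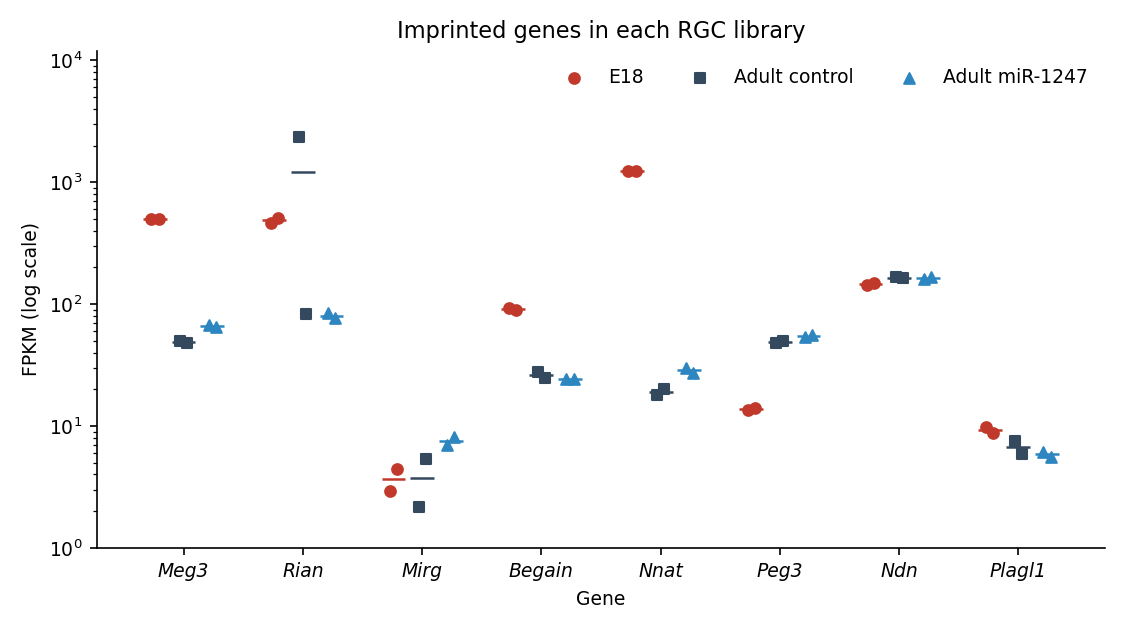
FPKM of the 8 genes (log axis) in each of the 6 libraries, 2 points per group, with a short line at the group mean. Nnat lies at 1236 and 1244 FPKM in the E18 libraries and at 17.9 to 29.7 FPKM in the 4 adult ones, and 1 adult control library lies apart for Rian at 2349 FPKM.

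Meg3 (chromosome 12, 109506877 to 109538165, plus strand) gives a long noncoding RNA from the maternal copy. It was at 502.4 and 501.5 FPKM in the E18 libraries, 50.3 and 48.0 FPKM in adult control and 67.5 and 64.4 FPKM in adult miR-1247. The 3 groups do not overlap, and E18 is highest. Its level was 10.2 times that of adult control in E18 (502 ± 0.605 against 49.2 ± 1.58 FPKM), a log2 fold change of 3.33 ± 0.0537 (adjusted p = 8e-08). Against adult miR-1247 it was 2.91 ± 0.0537 (adjusted p = 1.33e-07).

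Rian (109570242 to 109628150, plus strand), the host of the small nucleolar RNAs, was at 466.8 and 512.2 FPKM in E18 and at 83.9 and 76.6 FPKM in adult miR-1247. The adult control libraries were at 2349 and 82.5 FPKM. Control library 1 is thus above both E18 libraries, and control library 2 is beside the miR-1247 libraries. With both, the log2 fold change in E18 was 0.15 ± 1.33 (adjusted p = 0.927), although the ratio of the mean FPKM was 0.403, so the sign differs between the log and the linear mean. Without control library 1 it was 2.55 ± 0.0880 (adjusted p = 2.61e-05), and without control library 2 it was −2.26 ± 0.0832 (adjusted p = 3.03e-05). In these fits the lone library is assumed to vary like the other groups. Against adult miR-1247 the value does not use the control libraries, and it was 2.59. It was called in the fit of those 4 libraries alone (adjusted p = 8.58e-06) and not in the fit of all 6, whose spread holds both control libraries (adjusted p = 0.122).

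The difference between the control libraries for Rian was 4.82 on the log2(FPKM + 1) scale. Across 9987 genes the median difference between these libraries was 0.14, and 2 genes differed by as much as Rian, Rian included. Meg3, whose end lies upstream of Rian on the same strand, differed between the same libraries by 0.06. Rian and the coding gene Rtl1, on the opposite strand and without an entry, share 11.8 kb of sequence. The library kit as labelled is not stated to keep the strand, so reads of overlapping genes may not be told apart.

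**Figure D2:**
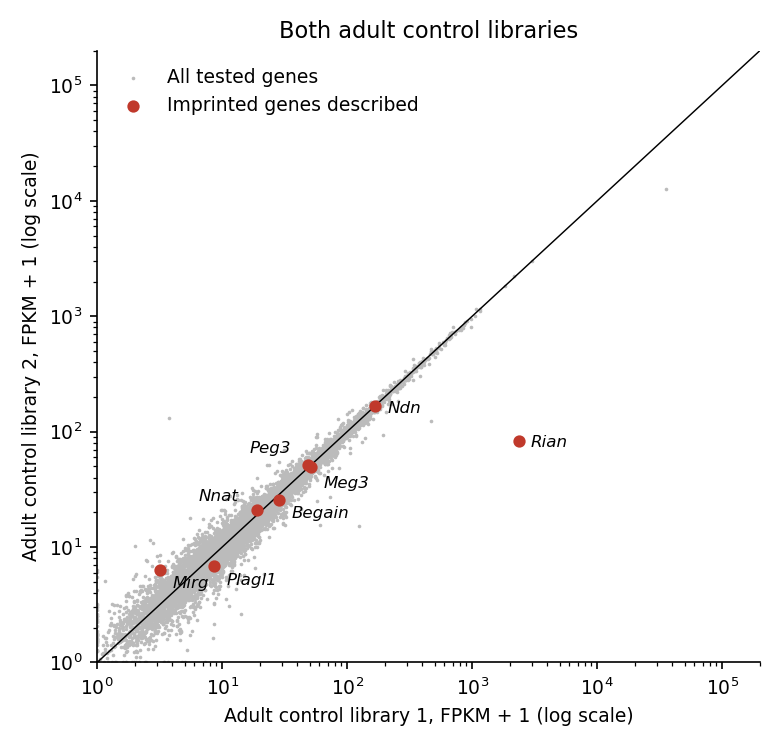
FPKM + 1 of every tested gene in adult control library 1 (horizontal) against adult control library 2 (vertical), both on log axes, with the line of equal values. Rian lies far to the right of the line at 2349 against 82.5 FPKM. Mirg lies to its left at 2.17 against 5.36 FPKM, and the other 6 genes differ by at most 0.31 on the log2(FPKM + 1) scale.

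Mirg (109696198 to 109715898, plus strand), the host of a large microRNA cluster, was low in every library. It was at 2.93 and 4.47 FPKM in E18, 2.17 and 5.36 FPKM in adult control and 6.97 and 8.12 FPKM in adult miR-1247. The E18 and control libraries overlap, and the miR-1247 libraries are highest. In E18 against control it did not pass (log2 fold change 0.05 ± 0.344, adjusted p = 0.912), and its sign turned under median ratio scaling (−0.08) and equal totals (−0.02). Against adult miR-1247 it was −0.88 ± 0.344 (adjusted p = 0.0559). In E18 the level of Mirg per length ranked 8840 of 9987 tested genes, where Meg3 ranked 57 and Rian 62. Among the members Mirg had the widest spread after Rian, with a difference of 1.003 between the control libraries on the log2(FPKM + 1) scale.

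Begain (108998104 to 109034294, minus strand) encodes a protein of the postsynaptic density and lies beyond Dlk1 at the outer end of the domain. It was at 92.8 and 89.2 FPKM in E18, 27.6 and 24.7 FPKM in adult control and 24.1 and 24.1 FPKM in adult miR-1247. Both E18 libraries are above the 4 adult ones. The log2 fold change against control was 1.76 ± 0.0808 (adjusted p = 4.3e-06) and against miR-1247 1.87 ± 0.0808 (adjusted p = 3.33e-06).

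Within 1000000 bases on either side of the span from Begain to Dio3 the table holds 24 gene names, and 22 of them were tested. In E18 against control 9 were higher, 6 lower and 7 not called, with a median of 0.07. This is near the 40.2% called higher and 29.8% called lower over all tested genes. Meg3 had the highest value in this window. No tested gene lies in the stretch from Mirg to Ppp2r5c, a phosphatase subunit gene, which covers Mir1247. Ppp2r5c, on its far side, was higher in E18 by 0.52. Eml1 and Evl, which lie beyond Begain, share 1 deposited locus and encode cytoskeletal proteins, were higher by 1.93 and 1.81, and Cyp46a1, a cholesterol hydroxylase of neurons, was lower (−2.30).

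**Figure D3:**
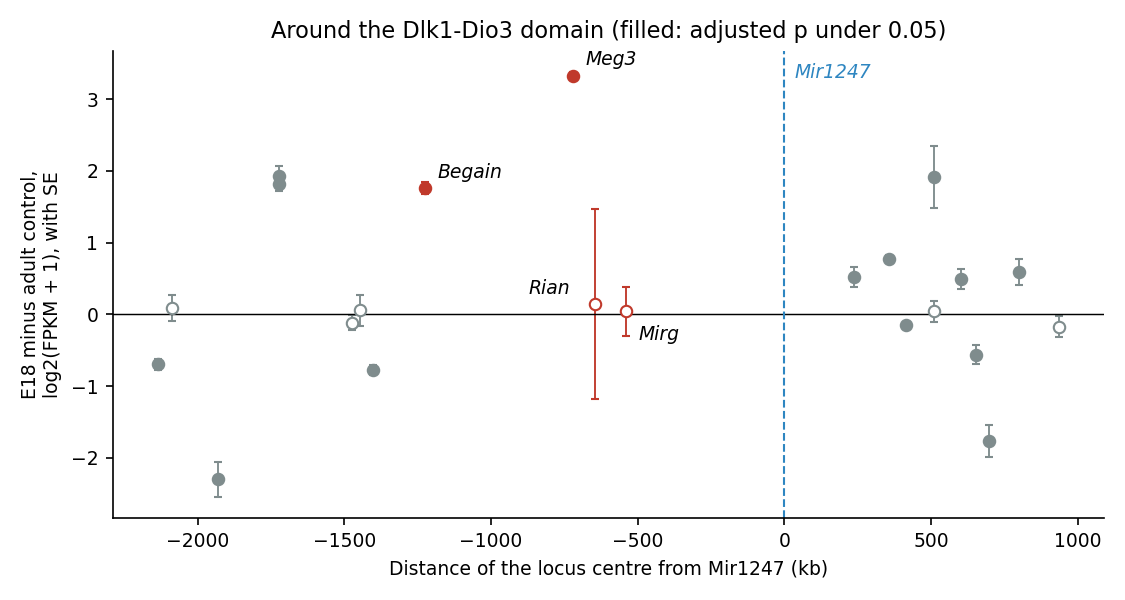
Difference of mean log2(FPKM + 1), E18 minus adult control, with its standard error, for the 22 tested genes around the Dlk1-Dio3 domain, against the distance of each locus centre from Mir1247 in kb. Red points are the 4 members of the domain. Meg3 (3.33) is the highest point, and genes on both sides of Mir1247 lie above and below 0.

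Nnat (chromosome 2, 157401879 to 157404573, plus strand) encodes neuronatin, a small membrane protein of the developing brain, from the paternal copy. It was at 1236 and 1244 FPKM in E18, 17.9 and 20.1 FPKM in adult control and 29.7 and 27.4 FPKM in adult miR-1247. The groups do not overlap. E18 was 65.3 times adult control (1240.0 ± 5.03 against 18.98 ± 1.52 FPKM), with a log2 fold change of 5.96 ± 0.0735 (adjusted p = 4.12e-08). By level per length Nnat ranked 14 of 9987 genes in E18 and 3883 in adult control. Blcap, which is transcribed from the other strand across the span of Nnat and has the same deposited locus, did not pass (74.9 FPKM in E18 and 83.0 FPKM in control, log2 fold change −0.15, adjusted p = 0.105). Without strand, reads of the shared stretch may not be told apart for these genes.

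Peg3 (chromosome 7, 6706882 to 6733468, minus strand) encodes a zinc finger protein from the paternal copy. It was at 13.6 and 14.1 FPKM in E18, 47.7 and 50.2 FPKM in adult control and 53.5 and 55.9 FPKM in adult miR-1247. Both E18 libraries are below the 4 adult ones, the reverse of Meg3 and Nnat. Adult control was 3.53 times E18, with a log2 fold change of −1.75 ± 0.0775 (adjusted p = 3.78e-06), and against miR-1247 it was −1.91 ± 0.0775 (adjusted p = 2.53e-06). Its neighbour Usp29, a paternally expressed gene of the same domain, was lower in E18 against control (−0.50, adjusted p = 0.0254). Unlike Peg3, Usp29 was not called against adult miR-1247 (0.07, adjusted p = 0.72), and its E18 and miR-1247 libraries overlap.

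Ndn (chromosome 7, 61995473 to 62000010, plus strand) encodes necdin, a growth suppressor of neurons, and belongs to the Prader-Willi domain. Its deposited locus, 61987541 to 62072993, also covers the annotated spans of Magel2 and Mkrn3. Whether their reads were counted in this entry was not tested. Ndn was at 143.7 and 148.3 FPKM in E18, 165.7 and 164.3 FPKM in adult control and 159.5 and 165.8 FPKM in adult miR-1247. Both E18 libraries are slightly below all adult ones. The log2 fold change was −0.18 ± 0.0480 (adjusted p = 0.0151), and it was not called without control library 1 (adjusted p = 0.0557), without E18 library 1 (adjusted p = 0.0646) or with no variance trend (adjusted p = 0.109). Against adult miR-1247 it was −0.15 ± 0.0480 (adjusted p = 0.025), a call lost with equal totals (adjusted p = 0.162), with no variance trend (adjusted p = 0.146), without miR-1247 library 2 (adjusted p = 0.115) and without E18 library 1 (adjusted p = 0.0933). By level per length Ndn ranked 385 of 9987 genes in E18 and 295 in adult control.

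Plagl1 (chromosome 10, 12936248 to 13007438, plus strand) encodes a zinc finger transcription factor that controls other imprinted genes. Its 2 entries have the same coordinates and were summed. The sums were 9.80 and 8.81 FPKM in E18, 7.54 and 5.87 FPKM in adult control and 6.14 and 5.53 FPKM in adult miR-1247. E18 is highest, by a small margin. The log2 fold change was 0.43 ± 0.162 against control (adjusted p = 0.0517). It was called without control library 1 (0.58, adjusted p = 0.0319) and with no variance trend (adjusted p = 0.0376). It was 0.27 without control library 2 (adjusted p = 0.221) and 0.31 for the larger entry alone (adjusted p = 0.192). Against miR-1247 it was 0.59 ± 0.162 (adjusted p = 0.0155). That call was lost under median ratio scaling and without miR-1247 library 2 or E18 library 1 (adjusted p = 0.0545, 0.0735 and 0.0894).

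In E18 against adult miR-1247 Nnat, Meg3, Begain and Plagl1 were called higher and Peg3 and Ndn lower, 6 of 8 beside 69.9% of all tested genes. This comparison shares the E18 libraries with the one above.

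**Figure D4:**
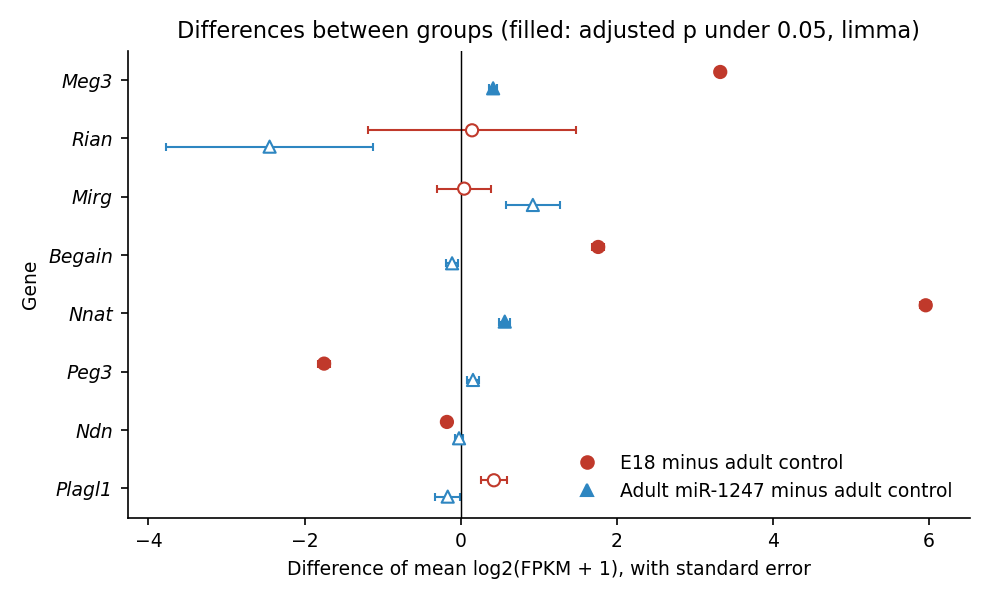
Difference of mean log2(FPKM + 1) with its standard error for the 8 genes, E18 minus adult control (red circles) and adult miR-1247 minus adult control (blue triangles), filled where the adjusted p is under 0.05. The red values run from −1.75 for Peg3 to 5.96 for Nnat, the blue ones of Meg3 and Nnat are 0.42 and 0.57, and the bars of Rian are wide in both comparisons.

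Adult RGCs given the miR-1247-5p mimic were next set against those given the scrambled one. Meg3 and Nnat rose and no member fell, 2 of 8 called beside 9.75% of all tested genes (3.53% higher and 6.22% lower). That split of 353 higher and 621 lower genes became 460 and 527 under median ratio scaling and 136 and 777 with equal totals. For Meg3 the log2 fold change was 0.42 ± 0.0537 (adjusted p = 0.0115), a ratio of means of 1.34. For Nnat it was 0.57 ± 0.0735 (adjusted p = 0.0115), a ratio of 1.504. In both genes the miR-1247 libraries lie between control and E18. The share of all tested genes placed in this way was not counted. With 2 libraries a group, the miR-1247 and control libraries of Begain, Peg3 and Mirg did not overlap either, without a call. How many of all tested genes lack overlap was not counted, so this is no result about the members.

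Both calls are near the threshold. The call of Meg3 was lost without control library 2 (adjusted p = 0.0556), miR-1247 library 1 (adjusted p = 0.0693) or miR-1247 library 2 (adjusted p = 0.0502), with equal totals (0.32, adjusted p = 0.0602) and with no variance trend (adjusted p = 0.0625). That of Nnat was lost without miR-1247 library 1 (adjusted p = 0.0703), E18 library 1 (adjusted p = 0.0531) or E18 library 2 (adjusted p = 0.0529), in the fit of the 4 adult libraries alone (adjusted p = 0.0588) and with no variance trend (adjusted p = 0.0509). Both stayed above 0 in all 14 alternatives, from 0.32 to 0.45 for Meg3 and from 0.47 to 0.64 for Nnat. Beside these values, all 14 RGC markers were called lower in the miR-1247 libraries. Of the 4 Müller glial and astrocyte markers 1 was called higher and none lower, the oligodendrocyte marker Mbp was called higher, the 1 tested rod marker was called lower, and no amacrine or bipolar marker was called. Their part in the values of Meg3 and Nnat was not tested.

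The other 6 members did not pass. At an unadjusted p under 0.05, limma gave 3 of the 8 members higher (Meg3, Nnat and Mirg) and 0 lower, beside 11.9% of all tested genes higher and 16.7% lower. Rian had a log2 fold change of −2.45 ± 1.33 (adjusted p = 0.279) with both control libraries. It was −0.04 without control library 1 (adjusted p = 0.821) and −4.86 without control library 2 (adjusted p = 2.73e-05). Mirg was at 7.55 ± 0.807 against 3.77 ± 2.25 FPKM (log2 fold change 0.92 ± 0.344, adjusted p = 0.139). It was 0.42 without control library 1 (adjusted p = 0.384) and 1.43 without control library 2 (adjusted p = 0.0668). Peg3 (0.16), Begain (−0.11), Plagl1 (−0.17) and Ndn (−0.02) had adjusted p from 0.237 to 0.811. The entries of Plagl1 went opposite ways, from 6.47 and 5.87 FPKM in control to 2.98 and 4.06 FPKM for the larger one and from 1.07 and 0 FPKM to 3.16 and 1.48 FPKM for the smaller. The larger entry alone gave −0.68 (adjusted p = 0.0793), and the sum gave −0.01 without control library 1 and −0.32 without control library 2. Ndn turned sign under median ratio scaling (0.01) and without miR-1247 library 1.

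By the distance between centred log2(FPKM + 1) values over the 6 libraries, genes among the 3 most like Meg3 were Vcan (distance 0.31) and 4931428F04Rik (0.32). Those most like Nnat were Gpc2 (0.50), Tubb2b (0.53) and Epb41 (0.59), the last listed at 0 in all 4 adult libraries. For Rian the nearest were Fam234a (2.34), Crym (2.97) and Rad9b (3.12), so the nearest genes lie farther from Rian than those named for Meg3 and Nnat lie from theirs.

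Other imprinted genes went both ways in E18 against adult control. Beyond the members, 31 of 60 listed genes have an entry, and 28 loci were tested, Peg13 and Trappc9 sharing 1 and the sum of Snhg14 including the locus of Snrpn. Of these 9 rose, 12 fell and 7 were not called, with a median of −0.17. Over all tested genes 40.2% were called higher, 29.8% lower and 70.1% in either direction, so the number called is near the background. In adult miR-1247 against control 1 of the 28, Copg2, fell (−0.68) and none rose by limma, beside 6 lower and 1 higher at an unadjusted p under 0.05, where 16.7% of all tested genes were lower and 11.9% higher.

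Among genes listed as paternally expressed outside the members' domains 4 rose and 6 fell of 11 tested. Over all tested genes 40.2% were called higher and 29.8% lower. The shared locus of Peg13 and Trappc9 is counted in this list and again in the maternal one. The copy expressed was not measured, so Copg2 counts here by the list alone. Rasgrf1, an exchange factor for Ras, was at 0.264 FPKM in E18 and 116.5 ± 5.44 FPKM in adult control (log2 fold change −6.54). Impact, a translation regulator of neurons, fell from 156 to 9.82 FPKM (−3.86), Nap1l5, of the nucleosome assembly protein family, from 669 to 52.0 FPKM (−3.66) and the splicing-factor-like gene Zrsr1 by 2.17. Inpp5f, a phosphoinositide phosphatase, rose by 1.27, Mcts2 by 0.82, Sgce by 0.81 and Zdbf2 by 0.61.

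Among genes listed as maternally expressed 4 rose and 5 fell of 11 tested. Over all tested genes 40.2% were called higher and 29.8% lower. The copy expressed in these cells was not measured, so genes such as Grb10 count here by the list alone. Grb10, an adaptor that restrains insulin receptor signalling, was at 2.84 FPKM in E18 and 36.0 FPKM in adult control (−3.29). The tetraspanin Cd81 (−0.95) fell as well. H13, a signal peptide peptidase, rose by 1.07, Cdkn1c, an inhibitor of the cell cycle, by 1.05, Igf2r by 0.71 and Osbpl5 by 0.66.

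In the Prader-Willi and Angelman domain Mkrn3 rose (from 1.82 to 5.86 FPKM, 1.27) and Ube3a, a ubiquitin ligase, fell (−0.37), beside Ndn. The Snrpn locus, at 496 FPKM in control and 569 FPKM in E18, did not pass (0.20, adjusted p = 0.447).

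**Figure D5:**
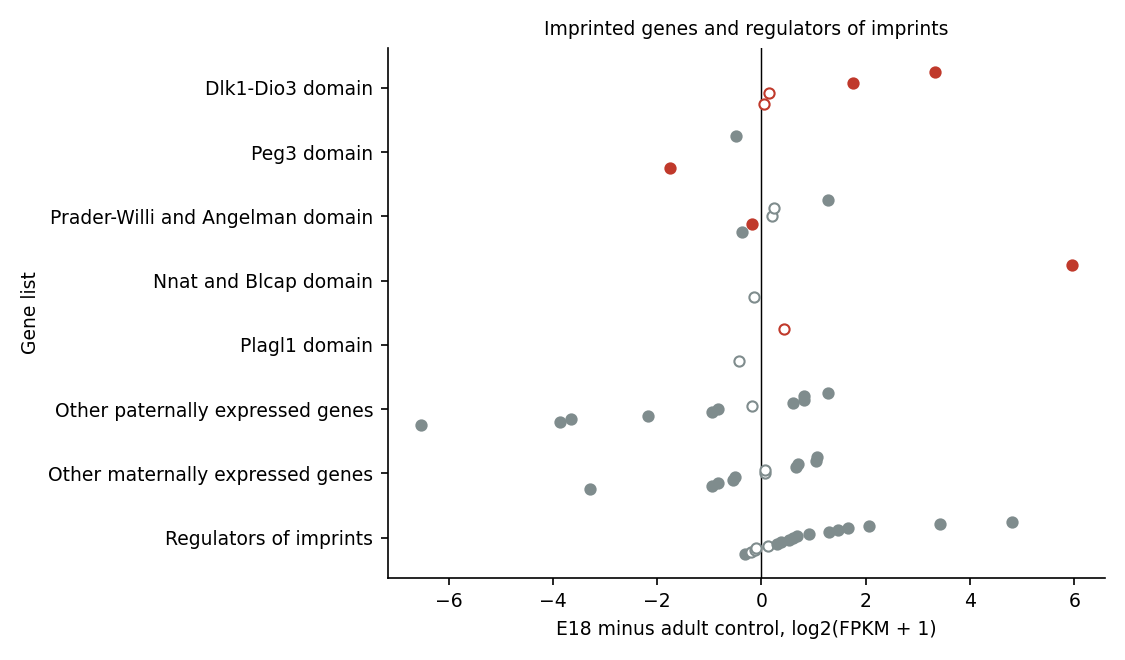
Difference of mean log2(FPKM + 1), E18 minus adult control, for each tested gene of 7 lists of imprinted genes and 1 list of regulators of imprints, with the 8 members in red and genes of an adjusted p under 0.05 filled. Imprinted genes lie on both sides of 0, from −6.54 (Rasgrf1) to 5.96 (Nnat).

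Of 17 tested genes that set, keep or read imprints, 12 rose in E18 against control, 1 fell and 4 were not called, with a median of 0.61 beside 0.16 over all tested genes. The 13 called of 17 are close to the 70.1% called in either direction over all tested genes. By direction, the 12 of 17 called higher are above the 40.2% of all tested genes called higher. The 1 called lower stands beside 29.8%. Zfp57, a zinc finger protein that binds methylated imprinting control regions, was at 112 FPKM in E18 and 3.07 FPKM in adult control (4.80, adjusted p = 3.95e-07). Ezh2, the Polycomb methyltransferase, rose by 3.42, Setdb1, a histone methyltransferase, by 2.06 and the methylcytosine oxidase Tet3 by 1.65. In adult miR-1247 against control limma called none of the 17, and 3 of them had an unadjusted p under 0.05, beside 28.6% of all tested genes.

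Promoters are shown for Nnat and Meg3, the members with the largest called increases at E18 against control, and for Peg3, the member with the largest called decrease, as the 250 bases before the RefSeq start (table of build GRCm38.p6, each found by exact match once on its chromosome of GRCm39). Capitals mark matches on either strand to TGACGTCA (the cAMP response element), CCATNTT (the core bound by YY1) or GGGGCCCC (bound by Plagl1). Over all 32851 promoters of 300 bases in the table, 1.79%, 16.1% and 1.08% hold a match.

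Meg3 (chr12:109506629-109506878, plus strand): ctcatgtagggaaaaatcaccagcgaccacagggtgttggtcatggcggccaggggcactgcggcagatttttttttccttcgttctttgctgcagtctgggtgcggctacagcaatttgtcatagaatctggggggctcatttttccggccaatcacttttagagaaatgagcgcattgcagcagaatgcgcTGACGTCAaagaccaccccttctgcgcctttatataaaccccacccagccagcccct

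Peg3 (chr7:6733419-6733668, minus strand): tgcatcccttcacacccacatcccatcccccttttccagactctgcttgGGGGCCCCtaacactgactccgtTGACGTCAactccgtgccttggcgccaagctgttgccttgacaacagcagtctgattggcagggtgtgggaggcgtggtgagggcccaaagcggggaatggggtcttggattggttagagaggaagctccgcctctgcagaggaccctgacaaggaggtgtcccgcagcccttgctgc

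Nnat (chr2:157401748-157401997, plus strand): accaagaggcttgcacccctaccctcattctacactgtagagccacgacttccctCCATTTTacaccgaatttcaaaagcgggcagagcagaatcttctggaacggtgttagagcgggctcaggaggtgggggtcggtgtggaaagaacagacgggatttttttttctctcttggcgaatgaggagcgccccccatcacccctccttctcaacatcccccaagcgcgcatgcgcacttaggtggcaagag

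Meg3, which rose in E18, and Peg3, which fell, both hold TGACGTCA, and Peg3 also holds GGGGCCCC. Nnat holds CCATNTT. These promoters have 13, 13 and 17 CpG pairs in the 300 bases (Meg3, Peg3 and Nnat), beside a median of 7 over all promoters. In the same order, 62.1%, 62.1% and 68.6% of all promoters have fewer CpG pairs. The window at the RefSeq start of Rian has none. A second start of Meg3 in the table holds none of the 3 motifs and 1 CpG pair. A match says only that these letters occur in the window.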

How the data were processed

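Per the submitters' processing notes, the authors used HISAT2, Cufflinks, Cuffdiff and the mm39 build, and versions are not given in the sources used here. Deposited FPKM values, 1 column for each library, carry an added 1e-05, which was taken off. The deposited log2 ratios of group means were within 0.0021 of those recomputed from FPKM and were used for that check only. Listed FPKM summed to 339224 to 392238 per library. Read depth is unknown, so no counting interval can be given, and an exact 0 can be a failed estimate.

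Entries of 1 gene name were summed and names with the same entries taken once, giving 10162 units, of which 9987 had a mean of at least 1 FPKM. In limma 3.58.1 (R 4.3.3), log2(FPKM + 1) of the 6 libraries was fitted with a mean for each of the 3 groups and a variance trend. The step was run on simulated data with few genes changed and a capped spread. That check does not cover a spread as wide as that of Rian. Tests are two-sided. Tables and figures used Python 3.11.15, pandas 2.3.3, NumPy 2.4.6 and Matplotlib 3.10.9. All members are named. Of each gene list up to 4 called genes with the highest and 4 with the lowest fold change are named, and lists of up to 12 measured genes may be named whole, and 2 genes that this rule would name are not reported here. Genes named around the Dlk1-Dio3 domain fall outside this rule and were chosen after their values were seen. The members and lists were chosen with earlier results of these data known. Alternatives were another pseudocount, no filter, single entries, 2 other scalings, no variance trend, the 4 libraries compared, a replicate block and leaving out each library.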

Additional observations from a re-analysis of the deposited data

How the results depend on the processing

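Nnat, Meg3, Begain and Peg3 kept their direction and their call in E18 against adult control, and against adult miR-1247, under all 14 alternatives. The number of genes called in adult miR-1247 against control, 974 as reported, was 343 with no variance trend, 347 in the fit of the 4 adult libraries, 584 with the replicate block, and 121 to 242 without single libraries. Members called there, 2 as reported, numbered 1 with equal totals, 0 with no variance trend, 1 in the fit of the 4 adult libraries and 0 to 2 without single libraries. In E18 against control 6998 genes were called (5930 to 7108 over all alternatives). The share of higher calls fell from 4019 of 6998 to 3400 of 6827 under median ratio scaling, which moved the median of all genes from 0.16 to 0.02. In adult miR-1247 against control the split was 353 higher and 621 lower as reported, 460 and 527 under median ratio scaling and 136 and 777 with equal totals. For Rian in E18 against control the value was −0.01 under median ratio scaling and from −2.262 to 2.553 without single libraries, the lowest without control library 2. For Mirg there it was −0.076 under median ratio scaling, −0.021 with equal totals and from −0.456 to 0.547 without single libraries, below 0 without control library 1 (−0.456) or E18 library 2 (−0.194). Ndn in adult miR-1247 against control was 0.015 under median ratio scaling and from −0.049 to 0.007 without single libraries, the highest without miR-1247 library 1. Over all members, comparisons and alternatives, 8 values turned sign. Of those that kept their sign 20 lost their call, 13 gained one and 295 did neither. The 8 include Rian in E18 against control without control library 2, which gained a call as well. What caused the turned signs and the changed calls was not tested. Same-numbered libraries of different groups did not deviate together (correlation −0.008 to 0.004 over 9987 genes). This check would show only a shift shared across many genes, so whether the numbers pair the libraries is not known. The replicate block gave a call to Plagl1 in E18 against control and to Mirg in E18 against adult miR-1247 (adjusted p = 0.0182), and changed no other member's call. Read depth is unknown, so the counting error behind low values, such as those of Mirg and Plagl1, cannot be given.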
